A study of Mus musculus with 9 samples.

Results

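The 7 genes described here encode 4 chemokines that act on the receptor CXCR2 (Cxcl1, Cxcl2, Cxcl3 and Cxcl5), CXCR2 itself (Cxcr2), granulocyte colony-stimulating factor or G-CSF (Csf3), and the G-CSF receptor (Csf3r). They were found by matching the Ensembl identifiers of the count table to these symbols, and make up 7 of its 55359 genes. Bulk RNA-seq was made from whole omenta, the fatty fold of peritoneum that hangs from the stomach, of C57BL/6 mice aged 7 to 10 weeks. All 9 mice received 500000 B16-OVA cells, a mouse melanoma line that carries ovalbumin, into the peritoneal cavity on day 0. On day 6 they were given OT-I T cells, which recognise ovalbumin and had been loaded with IL-12 mRNA by electroporation, by the intraperitoneal (IP; mice 2, 3 and 4) or the intravenous route (IV; mice 1, 2 and 4), or saline (PBS; mice 1, 2 and 3), and omenta were taken 18 h after the injection. The route of the saline is not given in the labels, and no group used here received T cells without IL-12 mRNA or had no tumour, so the comparisons are between complete treatments in tumour-bearing mice. Each library was 1 mouse.

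In mice, neutrophils leave the marrow and enter tissue along gradients of chemokines that share a glutamate-leucine-arginine motif and bind CXCR2. Macrophages, fibroblasts, mesothelial cells, endothelium and neutrophils can all transcribe these ligands when cytokines such as IL-1 and TNF activate NF-kB. G-CSF is secreted by many of the same stromal and myeloid cells, acts on granulocyte precursors and mature neutrophils through a receptor that signals by JAK and STAT3, and mobilises neutrophils from marrow into blood.

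The genes of all 4 ligands lie in 1 cluster on chromosome 5, while Cxcr2 is on chromosome 1, Csf3r on chromosome 4 and Csf3 on chromosome 11. RefSeq promoter sequences (build GRCm38.p6) were matched for 5 of the 7 genes. None was matched for Cxcl5 or Csf3, so these were not searched. The 120 bases before the transcription start of 3 ligand genes are shown because they share a sequence. Capitals mark matches, on either strand, to a kappa-B-like motif, a variant of the consensus of NF-kB. It was searched as GGG, any 3 bases and TTCC, and overlapping matches are joined. The windows are chr5:90891125-90891244 for Cxcl1, chr5:90903779-90903898 for Cxcl2 and chr5:90785981-90786100 for Cxcl3, all on the plus strand and written 5′ to 3′.
Cxcl1: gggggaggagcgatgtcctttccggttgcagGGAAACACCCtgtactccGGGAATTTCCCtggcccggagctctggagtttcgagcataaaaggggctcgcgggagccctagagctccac
Cxcl2: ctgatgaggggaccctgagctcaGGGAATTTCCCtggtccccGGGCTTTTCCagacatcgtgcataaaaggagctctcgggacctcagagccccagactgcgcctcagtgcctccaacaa
Cxcl3: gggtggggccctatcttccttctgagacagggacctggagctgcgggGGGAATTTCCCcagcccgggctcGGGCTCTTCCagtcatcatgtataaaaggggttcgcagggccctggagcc
The run GGGAATTTCCC is the longest that all 3 windows share. On either strand it was found in 14 of 32851 RefSeq promoters (0.0426%), these 3 among them, over the 250 bases before the start. It starts 71 bases before the start in Cxcl1, 97 in Cxcl2 and 73 in Cxcl3. The kappa-B-like motif was found in 4.65% of promoters. Csf3r held 1 match on the minus strand, with its outer base 129 bases before the start, and Cxcr2 held none. TATAAA, found in 12.4% of promoters, matched in Cxcl3 alone of the 5, while TTGCNNAA, a C/EBP-like motif found in 9.56%, matched in none of them. A match describes the letters and does not show that a factor binds there.

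The libraries held between 7379798 counts (IV 2) and 44626843 counts (PBS 3), so that 1 count weighs most in IV 2. Values are CPM, counts scaled to library size, with a TMM factor that corrects for differences in composition between libraries. Transcripts of 17 pancreatic acinar marker genes took 2.73% of counts in IV 1, 2.02% in IP 4 and 0.513% in IV 2, against at most 0.026% in each of the other 6 libraries. Values without the 2 highest libraries are given for the 7 genes and the gene lists where they end a call or move a count by more than 1.5 times. Melanoma markers summed to 14000 to 15700 CPM in IP omenta, 18700 to 24200 in IV omenta and 26200 to 29200 in PBS omenta. Mesothelial markers, which define the omental surface, were present in every group and summed to 150 to 329 CPM in IP omenta, 180 to 269 in IV omenta and 150 to 217 in PBS omenta. The highest sums in IP and IV omenta, 329 CPM in IP 4 and 269 CPM in IV 1, were in the 2 libraries with the most acinar transcripts. A part of pancreatic tissue in these sums was not tested. No library repeated another.

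All 7 transcripts were higher after IP treatment than after PBS, by 5.68-fold (Csf3r) to 51.9-fold (Cxcl3). After IV treatment, 1 of the 7, Csf3r, was higher than after PBS, by 2.46-fold, and this call was lost when any library other than PBS 3 was left out. Between the routes, 6 of the 7 were higher in IP than in IV, all but Csf3r, with 3 to 6 of the 7 when 1 library was left out (3 without IP 2). By edgeR's quasi-likelihood test with Benjamini-Hochberg adjustment over 17123 genes, at a threshold of 0.05, 32.9% of all genes tested were called in IP against PBS (18.7% higher and 14.2% lower), 16.1% in IV against PBS (10.4% higher and 5.66% lower) and 10.4% in IP against IV (5.93% higher and 4.47% lower). All 7 genes passed the filter on low counts. The 3 comparisons share libraries and are not independent of each other. In whole tissue, more cells that hold a transcript and more of it in each cell cannot be told apart.

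**Figure D1:**
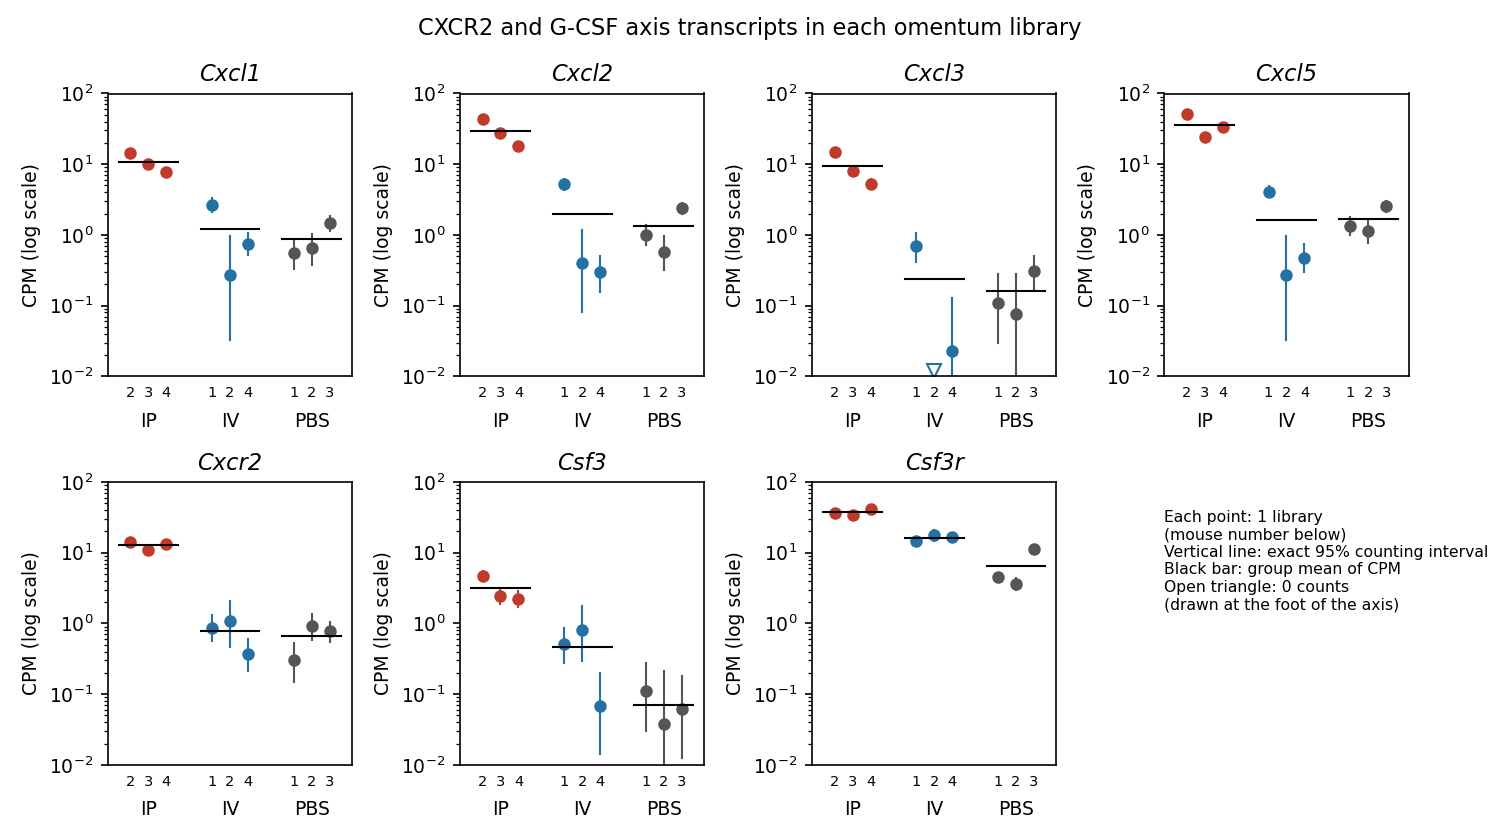
Each panel plots 1 gene, with CPM on a log axis for the 9 libraries, in the order IP, IV and PBS, and mouse numbers below. Points are libraries, vertical lines are exact 95% counting intervals and black bars are group means. All IP libraries lie above all IV and PBS libraries in each panel, and IV 1 is the highest IV library for the 4 ligands.

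Cxcl1, also called KC, is a ligand of CXCR2. It measured 14.2, 9.99 and 7.72 CPM in IP 2, 3 and 4, against 2.66, 0.267 and 0.753 CPM in IV 1, 2 and 4 and 0.546, 0.653 and 1.46 CPM in PBS 1, 2 and 3. The IP libraries were all above the others, whereas IV and PBS overlapped. On the log2 scale the fold change was 3.54 ± 0.60 (SE) in IP against PBS (edgeR adjusted p = 0.00123), 0.57 ± 0.61 in IV against PBS (edgeR adjusted p = 0.573) and 2.98 ± 0.60 in IP against IV (edgeR adjusted p = 0.0115). The last call was lost without IP 2 (log2 fold change 2.73, edgeR adjusted p = 0.0572).

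Cxcl2, also called MIP-2 and made largely by macrophages and neutrophils, measured 42.9, 27.9 and 18.2 CPM in IP 2, 3 and 4. It measured 5.17, 0.4 and 0.297 CPM in IV 1, 2 and 4, and 1.01, 0.576 and 2.38 CPM in PBS 1, 2 and 3. In measured CPM, IV 1 stood more than 10 times above IV 2 and IV 4, and these were below every PBS library. IV 2 held only 3 counts, with a counting interval of 0.0825 to 1.17 CPM. This spans the values of PBS 1 and PBS 2, so IV 2 cannot be placed below them. The interval of IV 4, 0.158 to 0.507 CPM, overlapped that of PBS 2, 0.322 to 0.95 CPM. Its log2 fold change was 4.43 ± 0.99 in IP against PBS (edgeR adjusted p = 0.00919) and 0.63 ± 0.97 in IV against PBS (edgeR adjusted p = 0.71). In IP against IV it was 3.80 ± 0.97 (edgeR adjusted p = 0.0441), the least firm of the called differences. Leaving out any 1 library other than IV 1 ended that call (edgeR adjusted p up to 0.135), while without IV 1 the log2 fold change was 6.53 (edgeR adjusted p = 0.00128). Without PBS 1 the call in IP against PBS was lost too (log2 fold change 4.25, edgeR adjusted p = 0.0592).

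Cxcl3, the mouse chemokine once named DCIP-1, was the least abundant ligand per kilobase of exon. It measured 15.0, 8.0 and 5.33 CPM in IP 2, 3 and 4, and 0.691, 0 and 0.0228 CPM in IV 1, 2 and 4. IV 2 had 0 counts, which allows up to 0.400 CPM at its depth (3 counts), and IV 4 had 1 count. In PBS 1, 2 and 3 it measured 0.109, 0.0768 and 0.305 CPM. Its log2 fold change was 5.70 ± 0.87 in IP against PBS (edgeR adjusted p = 0.000609), 0.59 ± 1.02 in IV against PBS (edgeR adjusted p = 0.74) and 5.11 ± 0.88 in IP against IV (edgeR adjusted p = 0.00526). That placed it at rank 9 of 17123 genes from the top in IP against IV. Without IV 1 that log2 fold change was 8.66, and without IV 4 it was 4.28.

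Cxcl5, known as LIX, is made mainly by epithelial and stromal cells and platelets. It measured 51.5, 24.3 and 33.4 CPM in IP 2, 3 and 4, against 4.11, 0.267 and 0.479 CPM in IV 1, 2 and 4 and 1.34, 1.15 and 2.56 CPM in PBS 1, 2 and 3. IV 1 was above every PBS library, and IV 2 and IV 4 measured below every one. IV 2 held only 2 counts, with a counting interval of 0.0323 to 0.964 CPM. This overlapped the interval of PBS 2, 0.777 to 1.64 CPM, so IV 2 cannot be placed below PBS 2. The interval of IV 4, 0.297 to 0.733 CPM, lay below that of every PBS library. On the log2 scale the fold change was 4.40 ± 0.77 in IP against PBS (edgeR adjusted p = 0.00222), 0.06 ± 0.77 in IV against PBS (edgeR adjusted p = 0.97) and 4.35 ± 0.79 in IP against IV (edgeR adjusted p = 0.00989). Without IV 1, which held the most acinar transcripts, Cxcl5 fell in IV relative to PBS, with a log2 fold change of -1.98 (edgeR adjusted p = 0.0436), and the fold change in IP against IV was 6.38 on the log2 scale. Without both IP 4 and IV 1 the log2 fold change in IV against PBS was again -1.98 but was not called (edgeR adjusted p = 0.0675).

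A single library weighed on the size of several of these changes. Without PBS 3, the highest PBS library for each of the 4 ligands, the log2 fold change in IP against PBS was 4.15 for Cxcl1, 5.19 for Cxcl2 and 6.57 for Cxcl3. IV 1 was the highest IV library for each ligand, and without it the log2 fold change of Cxcl1 in IP against IV was 4.09. Without both IP 4 and IV 1 the same comparison gave 6.79 for Cxcl2 and 8.95 for Cxcl3. Without IV 4 it gave 3.16 for Cxcl2 and 3.75 for Cxcl5. Without IV 1, all 4 log2 fold changes in IV against PBS turned negative, at -0.55 for Cxcl1, -2.11 for Cxcl2, -2.98 for Cxcl3 and -1.98 for Cxcl5, and only that of Cxcl5 was called. With the acinar level as a covariate, the log2 fold changes of Cxcl2 and Cxcl5 in IV against PBS were -0.78 and -1.06, and neither was called. IP 4, with an acinar share of 2.02%, was the lowest IP library for Cxcl1, Cxcl2 and Cxcl3 and the middle one for Cxcl5. A part of pancreatic tissue in the levels of the ligands was not tested.

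**Figure D2:**
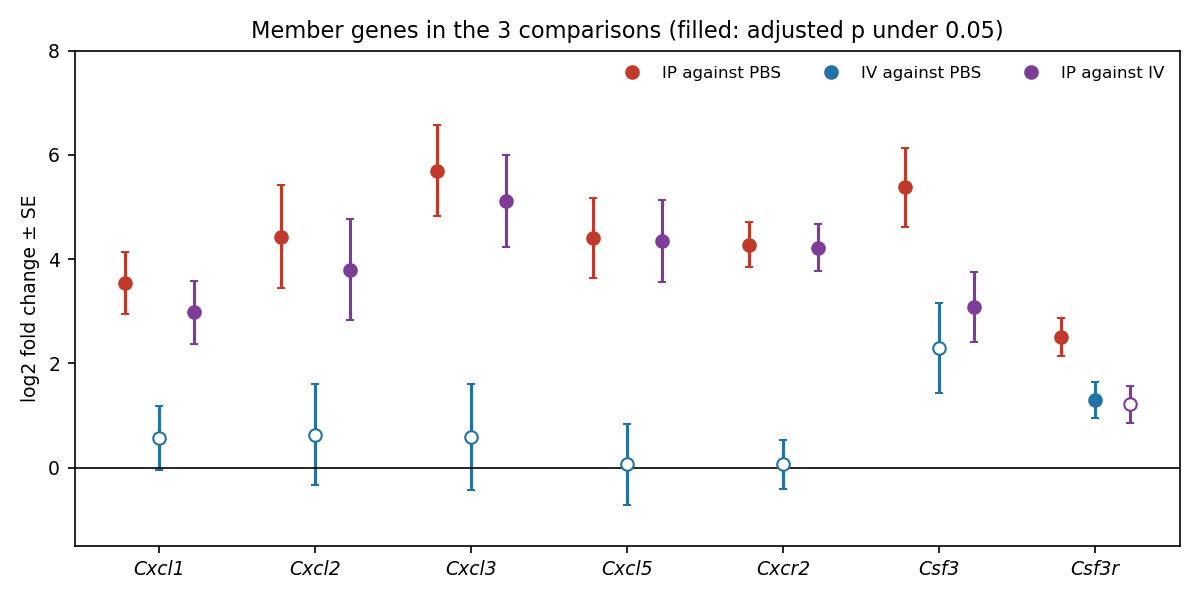
The log2 fold change ± SE of each gene is plotted for IP against PBS, IV against PBS and IP against IV. Filled points have an adjusted p under 0.05. All 7 genes are filled in IP against PBS, and Csf3r alone in IV against PBS, where the ligands lie between 0.06 and 0.63.

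Cxcr2, the receptor that neutrophils use to follow these ligands, measured 14.2, 11.0 and 13.3 CPM in IP 2, 3 and 4, against 0.873, 1.07 and 0.365 CPM in IV 1, 2 and 4 and 0.3, 0.921 and 0.772 CPM in PBS 1, 2 and 3. The IP libraries lay within a narrow band more than 10 times above the highest of the others. The log2 fold change was 4.28 ± 0.43 in IP against PBS (edgeR adjusted p = 5.54e-05), 0.06 ± 0.47 in IV against PBS (edgeR adjusted p = 0.948) and 4.22 ± 0.45 in IP against IV (edgeR adjusted p = 0.000625). The calls in IP against PBS and in IP against IV held under all 21 alternatives run.

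Csf3, which encodes G-CSF, measured 4.71, 2.46 and 2.22 CPM in IP 2, 3 and 4, against 0.509, 0.8 and 0.0685 CPM in IV 1, 2 and 4 and 0.109, 0.0384 and 0.061 CPM in PBS 1, 2 and 3. The PBS libraries held 4, 1 and 3 counts of it, so its fold changes rest on few molecules there. Its mean was 0.459 ± 0.369 CPM in IV and 0.0695 ± 0.0362 CPM in PBS (SD, n = 3 each), but IV 4 lay among the PBS libraries. The log2 fold change was 5.38 ± 0.76 in IP against PBS (edgeR adjusted p = 0.000397) and 3.08 ± 0.68 in IP against IV (edgeR adjusted p = 0.0174). On the log2 scale IV stood 2.30 ± 0.86 above PBS and missed the threshold (edgeR adjusted p = 0.0968). Without IV 4 this difference was called (log2 fold change 3.02, edgeR adjusted p = 0.00805). Without IP 2 the difference between IP and IV was not (log2 fold change 2.62, edgeR adjusted p = 0.0973), nor was it without IP 4 and IV 1 (log2 fold change 3.85, edgeR adjusted p = 0.052). Without IV 4 that difference was called at 2.36.

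Csf3r, the G-CSF receptor, is held by neutrophils, their precursors and, at lower levels, monocytes. It measured 36.3, 34.1 and 41.9 CPM in IP 2, 3 and 4, against 14.6, 17.6 and 16.5 CPM in IV 1, 2 and 4 and 4.48, 3.65 and 11.4 CPM in PBS 1, 2 and 3. The 3 groups did not overlap and stood in the order IP, IV, PBS. The log2 fold change was 2.51 ± 0.36 in IP against PBS (edgeR adjusted p = 0.00041) and 1.30 ± 0.35 in IV against PBS (edgeR adjusted p = 0.0315). In IP against IV it was 1.21 ± 0.35 (edgeR adjusted p = 0.0507), just outside the threshold. The IV call was lost when any library other than PBS 3 was left out (edgeR adjusted p up to 0.124), and also without IP 4 and IV 1 (log2 fold change 1.37, edgeR adjusted p = 0.0797), and the difference between the routes was called when any PBS library was left out (edgeR adjusted p between 0.00122 and 0.0467). Without PBS 3, the highest PBS library, the log2 fold change in IP against PBS was 3.20.

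Every IP library exceeded every PBS library for all 7 genes, where 28.4% of genes tested did, and every IV library for all 7, where 17.9% did. Every IV library exceeded every PBS library for 1 of the 7, where 16.5% of genes tested did. Levels of different genes were compared per kilobase of exon. In IP, the mean level was 19.6 ± 7.42 CPM per kb for Cxcl5, 14.3 ± 6.03 for Cxcl2, 10.4 ± 1.12 for Csf3r, 5.67 ± 1.75 for Cxcl1, 4.2 ± 0.533 for Cxcr2, 2.7 ± 1.43 for Cxcl3 and 2.21 ± 0.971 for Csf3 (CPM per kb, SD, n = 3). Neighbours in this order overlap within their SDs except Csf3r and Cxcl1. In IV and PBS the first place belonged to Csf3r, at 4.5 CPM per kb in IV and 1.8 CPM per kb in PBS, with each of the other 6 genes under 1 CPM per kb in both groups.

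The balance among the genes is described within each library, with no test. The log2 difference of Cxcr2 minus Csf3r was -1.54 ± 0.17 in IP, -4.40 ± 0.75 in IV and -3.11 ± 1.04 in PBS (SD, n = 3 each). The receptors thus stood nearest to each other in IP, and every IP library was above every other library on this measure. Among the ligands, counts of Cxcl3 made up 51.4, 44.5 and 40.8% of the counts of Cxcl1 and Cxcl3 together in IP 2, 3 and 4, against 16.7, 10.5 and 17.2% in PBS 1, 2 and 3. Every IP share was above every PBS share, and the lowest bound of an exact 95% interval in IP, 35.9%, lay below the highest bound in PBS, 37.4%, which rests on 24 counts. In IV 1 and IV 4 the share was 20.7% (interval 12.9 to 30.4%) and 2.94% (interval 0.0744 to 15.3%). IV 2 held 2 counts of Cxcl1 and 0 of Cxcl3, too few to place it. For Cxcl2 the share with Cxcl1 was 70.2 to 75.1% in IP, 66.0% in IV 1, 28.3% in IV 4 and 46.9 to 64.9% in PBS, and for Cxcl5 it was 70.9 to 81.2% in IP, 60.8% in IV 1, 38.9% in IV 4 and 63.6 to 71.0% in PBS, so that IP and PBS overlapped for Cxcl5. Cxcl2 and Cxcl3 are near-identical in part: 5.78% of the 51-base words of Cxcl2 transcripts and 4.15% of those of Cxcl3 were shared with another gene, each other among them, and reads from these stretches could be dropped or misplaced in counting. Cxcr2 (3.88%) and Csf3r (9.98%) shared such words with genes outside the 7, and Cxcl1 and Csf3 shared none.

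The chemokine cluster on chromosome 5 gives the setting of the ligand genes. In their order on GRCm38.p6, these are Cxcl5, Ppbp, Pf4, Cxcl3, Cxcl15, Cxcl1 and Cxcl2, followed by Mthfd2l, Epgn, Ereg and Areg. Pf4, a platelet chemokine that lies between Cxcl5 and Cxcl3, averaged 27.9 ± 3.64 CPM in IP omenta, 16.6 ± 10.3 in IV omenta and 17.3 ± 6.07 in PBS omenta (SD, n = 3 each), and was called in none of the comparisons (log2 fold change 0.69 ± 0.44 in IP against PBS, edgeR adjusted p = 0.262, or 0.0435 without IV 4). Ppbp, whose product also yields a CXCR2 ligand, had too few counts to be tested, with 46 in IP, 6 in IV and 7 in PBS. Cxcl15, a chemokine known mainly from lung, had 0 counts in IP, 0 in IV and 1 in PBS. Mthfd2l, a mitochondrial folate enzyme beside Cxcl2, was not called, at 0.60 ± 0.41 on the log2 scale in IP against PBS (edgeR adjusted p = 0.291). Beyond it, Ereg, which encodes the growth factor epiregulin, had 92 counts in IP, 3 in IV and 7 in PBS, and its log2 fold change in IP against PBS was 4.09 ± 0.75 (edgeR adjusted p = 0.00191). These neighbours were taken by position, after the values were seen.

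**Figure D3:**
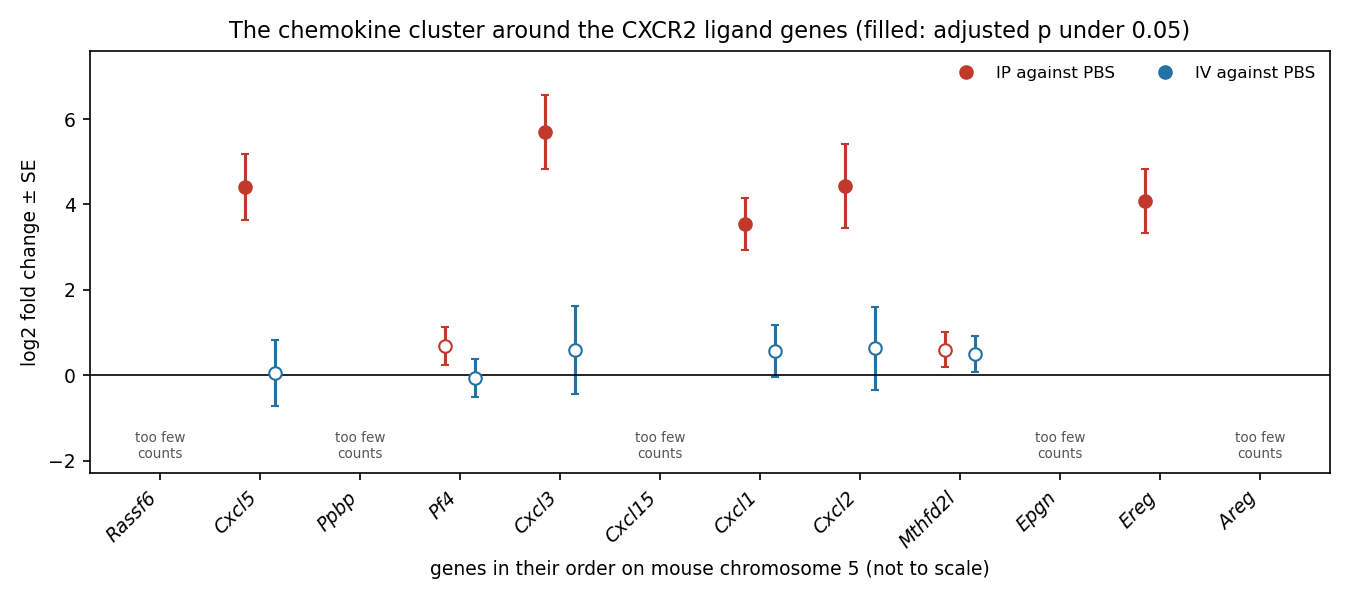
Genes are placed in their order on mouse chromosome 5 (not to scale), with the log2 fold change ± SE of IP against PBS and of IV against PBS. Filled points have an adjusted p under 0.05, and genes not tested, or with under 4 counts in a group, carry no point. The 4 CXCR2 ligand genes lie between 3.54 and 5.70 in IP, with Pf4 at 0.69 among them.

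Neutrophils carry both receptors, and their marker genes were counted beside them. Of 20 neutrophil markers, 19 were tested. In IP against PBS 17 were higher and none lower, with a median log2 fold change of 3.02, beside 0.02 over all genes tested. In IV against PBS 4 of 19 were higher (median 1.02, beside 0.04 over all genes), and in IP against IV 6 of 19 (median 1.30, beside -0.02 over all genes). For all genes tested, the shares higher were 18.7% in IP against PBS, 10.4% in IV against PBS and 5.93% in IP against IV. The summed level of the list was 1350 to 1880 CPM in IP omenta, 411 to 990 in IV omenta and 321 to 534 in PBS omenta. Mrgpra2b, a receptor gene of neutrophils, had too few counts to be tested and was at 0 in PBS. Ly6g, the defining surface marker, had 38 counts in IP, 17 in IV and 6 in PBS. Without PBS 1 the number higher in IP against PBS was 11. With the acinar covariate it was 9. In IV against PBS it was 2 without PBS 1, and also 2 without IP 4 and IV 1, but 7 without IV 4 or with DESeq2's Wald test and 8 without IV 4 and PBS 3, a pair left out after the data were seen. With the acinar covariate it was 1. The part of neutrophils in the levels of Cxcr2 and Csf3r was not tested.

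The most abundant markers on that list were Hp, Slpi, Lcn2 and Clec4e. Each was called higher in IP against PBS, but the call of Hp was lost without IP 4, PBS 1 or PBS 2. That of Slpi was lost without any single IP or PBS library, while those of Lcn2 and Clec4e held without each library in turn. Lcn2, an iron-trapping granule protein, averaged 205 ± 58.1 CPM in IP omenta, 20.1 ± 13.2 in IV omenta and 10.8 ± 4.52 in PBS omenta (SD, n = 3 each). It rose in IP against PBS, with a log2 fold change of 4.23 ± 0.54 (edgeR adjusted p = 0.000349), and in IP against IV with 3.35 ± 0.52 (edgeR adjusted p = 0.00465). Not all markers followed this pattern. S100a8, a subunit of calprotectin, averaged 32.7 ± 10.3 CPM in IP omenta, 30.7 ± 26.7 in IV omenta and 2.97 ± 1.36 in PBS omenta (SD, n = 3 each). It was higher than PBS in both treated groups, but the IP call was lost without IP 2 or any 1 PBS library and the IV call without any library but IV 4, and also without IP 4 and IV 1 (edgeR adjusted p = 0.107). Its log2 fold change in IP against IV was 0.13 ± 0.80 (edgeR adjusted p = 0.946). Fpr1, a receptor for formyl peptides, likewise averaged 4.89 ± 0.967 CPM in IP omenta, 5.5 ± 0.17 in IV omenta and 1.44 ± 0.67 in PBS omenta (SD, n = 3 each). Mrgpra2b, Ly6g, S100a8 and Fpr1 were singled out after their values were seen.

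Set against the mean log2 level of the 19 markers, Csf3r had group means near each other, at 0.97 ± 0.13 in IP, 1.29 ± 0.96 in IV and 0.99 ± 0.44 in PBS (log2 difference, SD, n = 3 each). Those of Cxcr2 were further apart, at -0.57 ± 0.14 in IP, -3.11 ± 0.30 in IV and -2.12 ± 0.78 in PBS. A prior count of 2 enters these levels and weighs on markers with few counts. Every IP library was above every other library on the Cxcr2 measure, with no test made. Precursor markers, which belong to immature granulocytes of the marrow, summed to 90.0 to 181 CPM in IP omenta, 26.5 to 114 in IV omenta and 7.37 to 29.1 in PBS omenta. Over all genes tested, 18.7% were higher in IP against PBS, 10.4% in IV against PBS and 5.93% in IP against IV. Of the 10 precursor markers, 2 were higher in IP against PBS, near that share, 2 in IV against PBS and none in IP against IV. Leaving out 1 library left 0 to 4 of them called higher in IV against PBS, with 4 without IV 4 and 0 without IP 3, IV 1, PBS 1 or PBS 2, and 1 without IP 4, IV 2 or PBS 3, and it was 0 without IP 4 and IV 1. Without IP 2, 1 was lower in IP against PBS and 3 in IP against IV, and without IV 1 or PBS 3, 1 was higher in IP against IV.

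**Figure D4:**
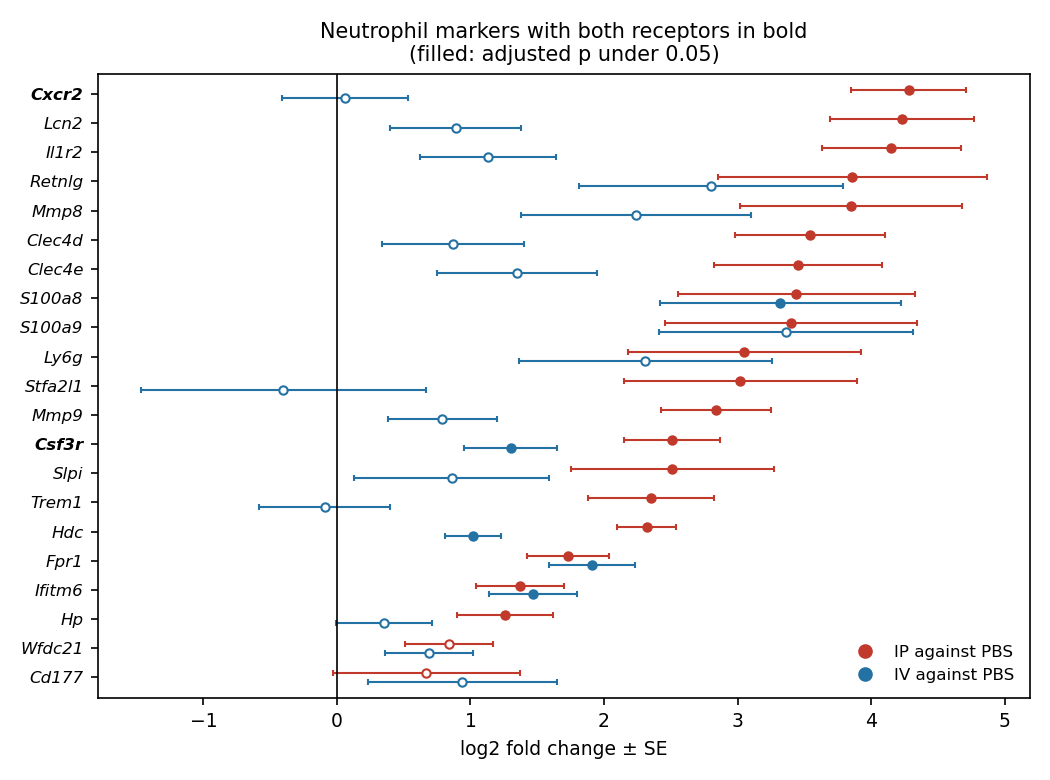
Log2 fold changes ± SE of IP against PBS and of IV against PBS are plotted for the neutrophil markers with more than 3 counts in each group compared, with Cxcr2 and Csf3r in bold, ordered by IP against PBS. Filled points have an adjusted p under 0.05. Cxcr2, at 4.28 in IP, has the widest gap between the comparisons with 0.06 in IV, while S100a8 and Fpr1 are filled in both.

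Markers of other cell types that can transcribe or answer these factors were counted too. Over all genes tested, 18.7% were higher and 14.2% lower in IP against PBS, and 10.4% higher and 5.66% lower in IV against PBS. Monocyte markers were higher for 8 of 10 in IP against PBS and 5 in IV against PBS, and summed to 2650 to 3060 CPM in IP omenta, 1450 to 2070 in IV omenta and 744 to 1400 in PBS omenta. Without PBS 2, 1 monocyte marker was lower in IV against PBS, and with no filter on low counts 2 were higher there. Macrophage markers summed to 1470 to 1610 CPM in IP omenta, 1590 to 2030 in IV omenta and 654 to 1150 in PBS omenta. Among 12 of them, 5 were higher and 4 lower in IP against PBS (2 lower without IP 2, IP 3 or PBS 1, and 1 lower with no filter). Of 12 mesothelial markers 1 was higher and 3 lower in IP against PBS (1 lower without IP 2), and of 9 endothelial markers 3 were higher and 1 lower. Of 8 fibroblast markers 2 were higher in IP against PBS, with 0 without IP 4 (and without IP 4 and IV 1), 1 without IP 3, PBS 1 or PBS 2, 4 without PBS 3 and 5 without IV 4 and PBS 3.

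T cell markers were higher for 7 of 9 in IP against PBS and for 6 of 9 in IV against PBS, and in IP against IV none was higher and 1 lower. With no filter on low counts 3 were higher in IP against PBS and 1 in IV against PBS. The IV count was also 1 without IV 2 and 2 without PBS 1. In IP against PBS 1 was lower without IV 1, and without IP 4 and IV 1, and none was lower in IP against IV without IP 2 or IP 3. Mast cell and basophil markers were higher for 5 of 6 in IP against PBS (3 with the acinar covariate), and of 8 melanoma markers 6 were lower. Platelet and erythroid markers were higher for 2 of 5 in IP against PBS, with 1 without IP 3, IP 4 or any 1 PBS library, 1 without IP 4 and IV 1, 0 with the acinar covariate, and 4 without IV 4. None of the 16 acinar markers tested was called in any comparison in the fit of all libraries, but without IV 4 10 were higher in IP against PBS and 5 in IV against PBS, and with DESeq2's Wald test all 16 were higher in both. The part of any of these cell types in the levels of the 7 genes was not tested.

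Of 10 other chemokine and chemokine receptor genes, 7 were tested, namely Pf4, Ackr1, Cxcl12, Cxcr4, Ackr3, Cxcl14 and Cxcl16. Ppbp, Cxcr1 and Cxcl15 had too few counts to be tested, so the counts are not those of the CXCR2 and CXCR1 axis itself. Of the 7, 6 were higher in IP against PBS, 4 in IV against PBS and 4 in IP against IV, with none lower. Beside these counts, 18.7%, 10.4% and 5.93% of all genes tested were higher, in the same order. In IV against PBS the count was 1 without PBS 1 and 2 without IV 2 or PBS 2, and in IP against IV it was 1 without IP 2 and 2 without IP 3, IP 4, IV 4 or PBS 3. Without IP 4 and IV 1 it was 2 in each of these comparisons. Cxcl14, a chemokine of fibroblasts and epithelium, averaged 18.4 ± 3.51 CPM in IP omenta, 3.19 ± 1.27 in IV omenta and 1.43 ± 0.47 in PBS omenta (SD, n = 3 each), and rose in both treated groups, by 3.70 ± 0.33 (edgeR adjusted p = 3.53e-05) and 1.19 ± 0.33 (edgeR adjusted p = 0.0323) on the log2 scale, the IV call being lost without IP 2, IP 3, IV 1, IV 2, PBS 1 or PBS 3, and without IP 4 and IV 1. Cxcl12, which holds neutrophils in marrow through CXCR4, averaged 79.6 ± 12.9 CPM in IP omenta, 58.5 ± 10.1 in IV omenta and 30.5 ± 7.24 in PBS omenta (SD, n = 3 each). Cxcr4 rose in IP against PBS by 1.42 ± 0.26 on the log2 scale (edgeR adjusted p = 0.00186). Ackr1, the decoy receptor of venules that binds CXCR2 ligands, rose to 5.85 ± 0.44 CPM in IP and 5.24 ± 1.71 CPM in IV, against 2.08 ± 0.641 CPM in PBS (SD, n = 3 each), with the IV call lost without IV 2, PBS 1 or PBS 2, and without IP 4 and IV 1. Cxcr1, the second receptor for some of these ligands, had too few counts to be tested (22 in IP, 7 in IV and 8 in PBS).

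Of the other colony-stimulating factors and their receptors, 10 of 11 were tested, and 8 were higher in IP against PBS, 6 in IV against PBS and 2 in IP against IV, with none lower. The shares of all genes tested that were higher were 18.7%, 10.4% and 5.93%, in that order. The count in IV against PBS was 2 without IV 2 or PBS 1, and 3 with the acinar covariate. The count in IP against IV was 0 without IP 2, IP 3, IP 4 or IV 2, and 1 without IV 1, where 1 was lower. Without IP 4 and IV 1 that comparison had 1 higher and 2 lower. It had 5 higher without PBS 3, without IV 4 and PBS 3, or with DESeq2's Wald test, where 1 was lower. Csf2, which encodes GM-CSF, averaged 1.11 ± 0.464 CPM in IP omenta, 0.904 ± 0.414 in IV omenta and 0.0967 ± 0.0842 in PBS omenta (SD, n = 3 each). Unlike Csf3, it was called in IV against PBS (log2 fold change 3.23 ± 0.82, edgeR adjusted p = 0.0249) as well as in IP against PBS (3.61 ± 0.80, edgeR adjusted p = 0.00579), and its fold change in IP against IV was 0.37 ± 0.67 (edgeR adjusted p = 0.785). Its IV call was lost without IV 2 or PBS 1. The difference between Csf2 and Csf3 in these changes was not tested. Il3, a T cell growth factor for myeloid and mast cells, had 75 counts in IP, 4 in IV and 0 in PBS. Csf1, the macrophage growth factor, averaged 128 ± 6.42 CPM in IP omenta, 70.2 ± 8.73 in IV omenta and 41.9 ± 16.4 in PBS omenta (SD, n = 3 each), and was called in all 3 comparisons, though only the call in IP against PBS held without each library in turn (edgeR adjusted p up to 0.183 in IV against PBS and 0.122 in IP against IV). Csf2rb and Csf2rb2, beta chain genes of the receptor family of IL-3, IL-5 and GM-CSF, were called in both comparisons with PBS. The IV call of Csf2rb2 was lost without IV 2, PBS 1 or PBS 2.

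Downstream of the G-CSF receptor, 16 of 17 signalling genes were higher in IP against PBS (median log2 fold change 1.79), 9 in IV against PBS (median 0.91) and 6 in IP against IV (median 0.77; 10 without IV 4 or with the acinar covariate, 11 with DESeq2's Wald test and 12 without IV 4 and PBS 3), with none lower. The exception in IP was Jak1 (log2 fold change 0.48 ± 0.18, edgeR adjusted p = 0.0676), which was called without IV 1, IV 4 or PBS 3. Among all genes tested, 18.7% were higher in IP against PBS, 10.4% in IV against PBS and 5.93% in IP against IV. Socs3, the STAT3 target that limits G-CSF receptor signalling, averaged 188 ± 10.2 CPM in IP omenta, 52.7 ± 7.42 in IV omenta and 28.0 ± 6.16 in PBS omenta (SD, n = 3 each), with log2 fold changes of 2.75 ± 0.17 in IP against PBS (edgeR adjusted p = 1.25e-05) and 1.84 ± 0.17 in IP against IV (edgeR adjusted p = 0.00031). Cebpb, a factor of granulocyte production under demand, averaged 122 ± 31.6 CPM in IP omenta, 38.1 ± 17.8 in IV omenta and 19.8 ± 4.57 in PBS omenta (SD, n = 3 each). Gfi1, a repressor needed for granulocyte development, rose to 9.51 ± 0.606 CPM in IP and 3.35 ± 1.18 CPM in IV, against 1.31 ± 0.354 CPM in PBS (SD, n = 3 each), with the IV call lost without IV 2, PBS 1 or PBS 2. Many of these genes also serve other cytokine receptors, among them those of IL-6, IL-12 and interferons, and their changes cannot be assigned to G-CSF.

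Of 19 genes for inducers of CXCR2 ligands and G-CSF and for their receptors and NF-kB proteins, 17 were tested, and 15 were higher in IP against PBS, 6 in IV against PBS and 8 in IP against IV, with none lower. All genes tested gave 18.7%, 10.4% and 5.93% higher, in that order. The count in IV against PBS was 3 without IP 2, IP 3, IP 4, IV 2 or PBS 1, 3 without IP 4 and IV 1, and 2 without PBS 2 or with the acinar covariate, while it was 10 without IV 4 and PBS 3. The count in IP against IV was 4 without IP 2 or IP 3 and 5 without IP 4 or IV 2, and ranged from 4 to 12 over all alternatives. Il1b, which encodes IL-1 beta, averaged 35.1 ± 11.0 CPM in IP omenta, 3.75 ± 3.32 in IV omenta and 1.47 ± 0.748 in PBS omenta (SD, n = 3 each). Its log2 fold change was 4.55 ± 0.62 in IP against PBS (edgeR adjusted p = 0.000376), 1.35 ± 0.60 in IV against PBS (edgeR adjusted p = 0.151) and 3.19 ± 0.59 in IP against IV (edgeR adjusted p = 0.00819), and without IV 4 it was called in IV against PBS too (edgeR adjusted p = 0.0419). Il6, which is often induced with Csf3, averaged 7.78 ± 1.56 CPM in IP omenta, 0.605 ± 0.307 in IV omenta and 0.22 ± 0.212 in PBS omenta (SD, n = 3 each), and was called in IP against PBS (log2 fold change 5.12 ± 0.60, edgeR adjusted p = 0.000131) but not in IV against PBS (1.30 ± 0.66, edgeR adjusted p = 0.206, or 0.049 without PBS 1).

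Whether Tnf differed from Il1b and Il6 in its changes was not tested. Tnf averaged 15.0 ± 0.28 CPM in IP omenta, 5.21 ± 1.58 in IV omenta and 1.13 ± 1.15 in PBS omenta (SD, n = 3 each). It was called in both comparisons with PBS, by 3.67 ± 0.58 (edgeR adjusted p = 0.000803) and 2.12 ± 0.57 (edgeR adjusted p = 0.0313) on the log2 scale, but the IV call held without IV 1 or PBS 3 and was lost without any other library, and without IP 4 and IV 1 (edgeR adjusted p = 0.0587). Ifng, the cytokine that IL-12 induces in T and NK cells, averaged 715 ± 131 CPM in IP omenta, 13.3 ± 2.6 in IV omenta and 0.826 ± 0.656 in PBS omenta (SD, n = 3 each), and was called in all 3 comparisons. IL-17 is the T cell cytokine best known for raising Cxcl1, Cxcl5 and Csf3. Il17a had 0 counts in every library, and Il17f had 4 in IP, 0 in IV and 6 in PBS. For a count of 0, up to 3 counts remain possible in each library. Il17ra, the receptor chain, rose in IP against PBS by 0.96 ± 0.16 on the log2 scale (edgeR adjusted p = 0.000889), while Tlr4, the endotoxin receptor, measured 34.5 ± 1.82 CPM in IP omenta, 27.3 ± 6.22 in IV omenta and 31.3 ± 8.68 in PBS omenta (SD, n = 3 each) and was not called.

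**Figure D5:**
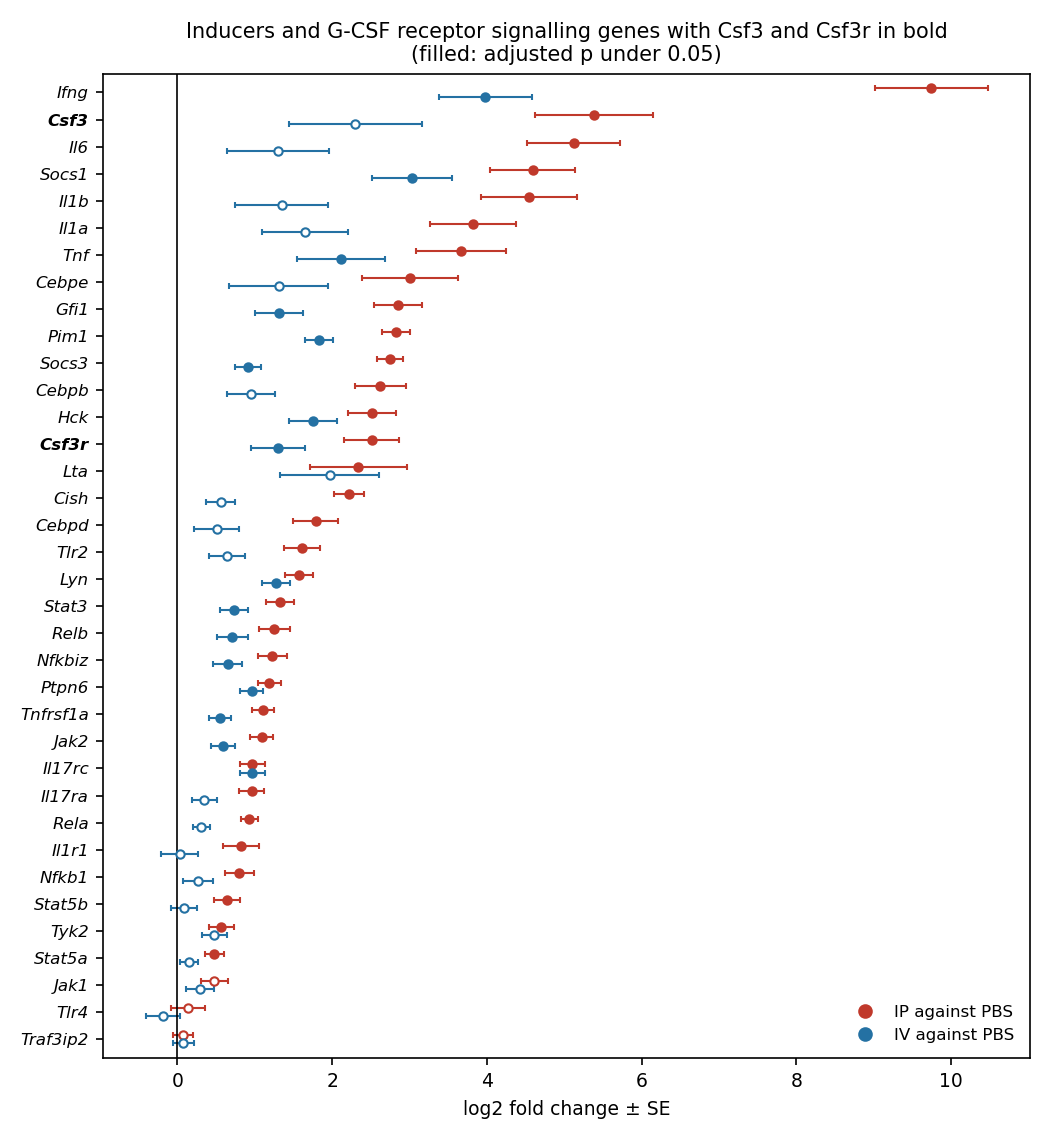
Log2 fold changes ± SE of IP against PBS and of IV against PBS are plotted for the inducer and G-CSF receptor signalling genes with more than 3 counts in each group compared, with Csf3 and Csf3r in bold. Filled points have an adjusted p under 0.05. Ifng is at the top with 9.74 in IP, followed by Csf3 at 5.38 and Il6 at 5.12.

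The mRNAs of these chemokines and of Csf3 carry AU-rich elements that decay factors bind. Of 8 such factors and their opponents, 3 were higher in IP against PBS, 3 in IV against PBS and 3 in IP against IV (1 without IP 2, IP 3, IP 4 or IV 1, and without IP 4 and IV 1), with none lower. Shares over all genes tested were 18.7%, 10.4% and 5.93% higher in these comparisons, in that order. The most abundant, Hnrnpd, Elavl1, Zfp36l1 and Zfp36l2, were called in none of the comparisons in the fit of all libraries, while Zfp36l2 was called in IP against PBS without IV 4 or PBS 3. The 3 called in IP against PBS are Zfp36, which encodes tristetraprolin, Zc3h12a, which encodes the RNase regnase-1, and Arid5a, which stabilises Il6 mRNA. They were named after their values were seen, and Zfp36 was the highest of them, at 127 ± 20.4 CPM in IP omenta, 47.8 ± 3.97 in IV omenta and 21.3 ± 4.69 in PBS omenta (SD, n = 3 each).

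Of 19 genes for the adhesion and guidance of neutrophils and other leukocytes, 15 were higher in IP against PBS, 11 in IV against PBS and 7 in IP against IV. Across all genes tested, the shares higher were 18.7%, 10.4% and 5.93%, in that order, and 4.47% were lower in IP against IV. Icam2 was lower in IP against IV (log2 fold change -0.77 ± 0.20, edgeR adjusted p = 0.0373). The 4 not called in IP against PBS were the selectin genes Sele and Selp, Icam2 and Cd177, named after their values were seen. The count in IV against PBS was 7 without IV 2, 6 without PBS 1 and 5 without PBS 2, and no gene of the list was lower in IP against IV without IP 2, IP 3, IP 4, IV 1, IV 2 or PBS 1, or without IP 4 and IV 1. In a fit of the IV and PBS libraries alone, the counts higher in IV against PBS were 2 for the other chemokines and chemokine receptors, 3 for the colony-stimulating factors, 2 for the inducers and 6 for the adhesion genes. Itgb2, the integrin chain CD18 of neutrophils and other leukocytes, averaged 590 ± 8.5 CPM in IP omenta, 226 ± 29.8 in IV omenta and 110 ± 44.0 in PBS omenta (SD, n = 3 each). Itgam, its partner in Mac-1, averaged 198 ± 34.7 CPM in IP omenta, 89.2 ± 39.2 in IV omenta and 58.6 ± 17.1 in PBS omenta (SD, n = 3 each), and was called in IP against PBS and in IP against IV, the second call being lost without any IP library, IV 2 or IV 4. Cxcl10, counted among the 15, is an interferon-induced ligand of CXCR3 and not CXCR2. It averaged 3000 ± 267 CPM in IP omenta, 1270 ± 278 in IV omenta and 282 ± 116 in PBS omenta (SD, n = 3 each).

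The genes most alike in pattern were found by the root mean square distance between centred log2 CPM profiles, in SD units, over the 9 libraries and 10973 genes. The ligands were near to each other: Cxcl3 was the nearest of the 7 to Cxcl1 (0.16), Cxcl2 (0.126) and Cxcl5 (0.132). Among the 3 nearest other genes were Slc7a2 (0.168) and Ptgis (0.173) for Cxcl1, Egln3 (0.154) and Thbs1 (0.171) for Cxcl3, and Slc7a11 (0.169) for Cxcl5. Ptgis (0.186), Arg1 (0.196) and Cd14 (0.197) were the nearest to Cxcl2, and Sphk1 (0.182), Impdh1 (0.183) and Ass1 (0.189) the nearest to Cxcr2. Nab2 (0.174), Ier5l (0.207) and Ramp3 (0.237) were the nearest to Csf3. Csf3r was nearest to Fgr (0.0886), a kinase gene of myeloid cells, then to Zfp710 (0.126) and Csf2rb2 (0.126), and stood 0.524 from the nearest of the 7, Csf3. Cxcr2 was 0.39 from the nearest of them, Cxcl3. These distances are descriptions, with library, depth and group shared by all points.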

How the data were processed

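Per the labels' protocols, poly(A) RNA of 1 omentum per mouse was made into strand-specific libraries and read as 51-base pairs. The submitters' processing notes name STAR 2.7.9, featureCounts, limma and mm39, with no roles; neither annotation release nor strand setting is stated there. The deposited table holds raw whole-number counts of 55359 genes. A second deposited table holds log2 CPM of 18833 genes, which equals log2((count + 0.5) / (total + 1) × 1e+06) to within 5e-14, and served as an alternative. Symbols came from GENCODE M21 (52083 genes matched), and exon lengths from the same release.

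The main test used edgeR 4.0.16 (R 4.3.3), with filterByExpr, TMM, 1 robust quasi-likelihood fit of all 9 libraries, two-sided tests, Benjamini-Hochberg adjustment over 17123 genes and a threshold of 0.05. The fit was tested on simulated data. The standard error was taken as the size of the log2 fold change over the root of its F statistic. Counting intervals are exact (95%, Clopper-Pearson), and they and the floor of 3 counts cover counting error only, since the labels name no molecular identifiers. Depth was 7379798 to 44626843 counts per library. DESeq2 1.42.0 and limma 3.58.1 were used in 19 alternatives planned and 2 added after the data were seen.

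All 7 members, the genes of 4 pathway lists, and up to 4 genes of highest mean CPM of each other list may be named, and for each member the 3 nearest genes in pattern with a mean of at least 5 CPM. The members and the 18 lists were chosen with earlier results of these data known. Some genes that this rule names are not reported here.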

Additional observations from a re-analysis of the deposited data

Results flagged for a closer look

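For 6 of the 7 genes the effect of treatment differed between the routes, by the test of IP against IV, which share the PBS libraries as baseline (edgeR adjusted p under 0.05). The log2 fold changes of IP against IV were 2.98 for Cxcl1, 3.80 for Cxcl2, 5.11 for Cxcl3, 4.35 for Cxcl5, 4.22 for Cxcr2 and 3.08 for Csf3, with edgeR adjusted p-values of 0.0115, 0.0441, 0.00526, 0.00989, 0.000625 and 0.0174 in that order. Every IP library was above every IV library for each of them. IV 1 was the highest IV library for the 4 ligands and IV 2 for Cxcr2 and Csf3.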

How the results depend on the processing

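In IP against PBS all 7 genes stayed called, except Cxcl2 with no filter on low counts (log2 fold change 4.35, edgeR adjusted p = 0.0533) and without PBS 1. In IV against PBS the number of the 7 called was 1 in the main analysis, 2 with DESeq2's Wald test, 0 with the acinar level as a covariate, in a fit of the 2 groups alone or with no filter, and 0 to 1 without 1 library. It was 0 without IP 4 and IV 1, and 2 without IV 4 and PBS 3, both chosen after seeing the data. The 1 called was not always Csf3r: without IV 1 it was Cxcl5 and without IV 4 it was Csf3. For IP against IV the number was 6, but 2 with no filter and 3 to 6 without 1 library, with 3 without IP 2. With no filter, Cxcl1, Cxcl2, Cxcl3 and Cxcl5 missed the threshold (edgeR adjusted p between 0.0523 and 0.168). Csf3r was called in IP against IV with DESeq2's Wald test (adjusted p = 0.0083), limma voom (adjusted p = 0.0192), thinned counts and a fit of the 2 groups.

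Over all genes, 5626 were called in IP against PBS (3956 to 6569 without 1 library) and 2753 in IV against PBS. That count was 1348 with the acinar covariate, 1210 in a fit of the 2 groups, 980 to 4580 without 1 library, 1647 without IP 4 and IV 1, and 4442 without IV 4 and PBS 3. In IP against IV 1780 were called, 2759 with DESeq2's Wald test, 673 to 2873 without 1 library, 903 without IP 4 and IV 1, and 3486 without IV 4 and PBS 3. With limma on the deposited log2 CPM, which has no TMM, the median of all genes moved to -0.14 in IP against PBS, and the share of calls that were higher was 42.58% against 56.83%. In IP against IV it was 40.7% against 57.02%, and in IV against PBS 54.57% against 64.8%.

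Signs turned in IV against PBS alone, for the 4 ligands and Cxcr2. Their main log2 fold changes there were 0.06 to 0.63 with SEs of 0.47 to 1.02, so their direction was not resolved. Without IV 1 the log2 fold changes were -0.55 (Cxcl1), -2.11 (Cxcl2), -2.98 (Cxcl3), -1.98 (Cxcl5) and -0.28 (Cxcr2), and without IP 4 and IV 1 they were -0.56, -2.10, -2.97, -1.98 and -0.25. Without IV 4 and PBS 3 they were 1.51, 1.99, 2.25, 1.08 and 0.64. The acinar covariate gave -0.78 (Cxcl2), -1.06 (Cxcl5) and -0.42 (Cxcr2), limma on deposited values -0.39 (Cxcl2), -0.47 (Cxcl3) and -0.93 (Cxcl5), and voom -0.49, -0.59 and -0.78 for the same. Cxcl5 was -0.07 with DESeq2, -0.10 thinned, -0.10 without PBS 1 and -0.18 without PBS 2, and Cxcr2 -0.14 without IV 2 and -0.30 without PBS 1. The cause was not tested.

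Libraries with the same mouse number did not stand out as pairs. Correlations of their deviations lay between -0.399 and 0.1, against -0.336 to 0.272 for libraries with different numbers. With 3 libraries per group these values cannot show whether equal numbers were handled together. With the replicate block 1134 genes were called in IP against IV and 4 of the 7, Cxcl2 and Cxcl5 being lost (edgeR adjusted p = 0.13 and 0.115), and Cxcl5 was -0.14 in IV against PBS. Depth limits Cxcl3 and Csf3 most, with at most 21 and 8 counts over the PBS libraries.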
